A study of Mus musculus with 8 samples.

Results

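The forkhead (Fox) and Sox genes encode 2 families of transcription factors, and their probes were taken from the array as every noncontrol probe whose gene name is Fox plus a letter and a number or Sox plus a number. That gave 96 of 41174 probes and 58 of 27962 gene names, with 38 Fox genes on 54 probes and 20 Sox genes on 42 probes. Forkhead genes that the array lists under other names (Ches1, Fkhl18, Mllt7) lie outside this rule. Forkhead proteins bind DNA through a winged helix domain and Sox proteins through an HMG box, and both families direct how cells take on and keep their identity. In the oviduct, Foxj1 is known as the master regulator of multiciliated cells, and Foxa2 as a factor of gland and other endodermal and reproductive tract epithelium. Foxl2 marks granulosa cells of the ovary, and Sox17 is known for its roles in endoderm, in blood vessel lining and in reproductive tract epithelium.

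RNA came from oviducts of CD-1 female mice on GD2, the second day of pregnancy, 48 hr after hCG, the gonadotropin that triggers ovulation. At 6–8 weeks of age all of them had been superovulated and mated, and RNA was isolated after the embryos were taken out. Controls had received corn oil subcutaneously on PND1–PND5, the first days after birth, and Gen-treated mice had received genistein, a soy phytoestrogen, at 50 mg/kg/day in corn oil by the same route on the same days. There were 4 independent biological replicates per group, each on 1 array. For adult PCR samples the methods pooled both oviducts of 1 mouse as 1 replicate, and for the arrays they give no number of mice. The study asked whether the neonatal treatment altered oviduct gene expression in the adult.

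Signals are scaled 1-color Agilent intensities in arbitrary units, and "well above background" is the scanner software's own call for a probe on an array. Control arrays had from 25359 to 28934 such probes and Gen arrays from 29527 to 31468. The lowest scaled signal with that call was 28.5–65.9 on control arrays and 14.5–20.9 on Gen arrays, and the call thus began at lower signals on Gen arrays. Each group was hybridized on a slide of its own, and the effects of slide and treatment cannot be told apart. In whole oviducts, fewer cells of a type and less RNA per cell cannot be told apart either. The levels of different probes are not comparable. Comparisons are between groups or arrays, for 1 probe, for a ratio of probes within an array, or for the summed signal of a list. Such a sum is weighted toward its brightest probes.

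The probes that the results turn on include a few that lie in protein-coding sequence, shown here 5′ to 3′ with positions on mouse NCBI build 35 (mm7). The first set is shown because the brightest Sox11 probe lies in the conserved HMG box. It shares 12 bases, in capitals, with the Sox19 probe, for which the design gives no position.
Sox11, chr12:25177775-25177834, minus strand: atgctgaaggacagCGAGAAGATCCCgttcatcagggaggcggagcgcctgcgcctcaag
Sox19: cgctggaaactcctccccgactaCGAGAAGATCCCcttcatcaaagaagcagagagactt

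The next set is shown because these probes of Sox3, Sox14 and Sox17 passed the test, while that of Sox21 did not although a more downstream probe of the same gene did.
Sox3, chrX:56286797-56286856, minus strand: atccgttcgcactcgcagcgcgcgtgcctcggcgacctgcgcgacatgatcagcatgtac
Sox14, chr9:99518204-99518263, minus strand: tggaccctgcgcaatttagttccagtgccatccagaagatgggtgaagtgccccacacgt
Sox17, chr1:4487401-4487460, minus strand: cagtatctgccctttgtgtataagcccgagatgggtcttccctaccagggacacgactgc
Sox21, chr14:112637960-112638019, minus strand: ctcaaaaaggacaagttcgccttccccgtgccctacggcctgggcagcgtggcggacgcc

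Of the 58 genes, 33 were well above background on all 8 arrays by their brightest probe, 15 on 1 to 7 arrays and 10 on no array. Among the 33, Foxc1, Sox14 and Sox21 rose and Sox3 and Sox17 fell, by limma at an adjusted p under 0.05, and the other genes did not pass. These 5 genes, 1 of 19 Fox genes and 4 of 14 Sox genes, stand beside 4.62% called over all 16912 genes measured on all 8 arrays. In 6 of the 33 genes the groups did not overlap, Foxo1 being the one that was not called, beside 12.4% of all genes. The median log2 fold change of the 33 genes was 0.03 and that over all such genes 0.01, with 22 of the 33 above 0 and 11 below.

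**Figure D1:**
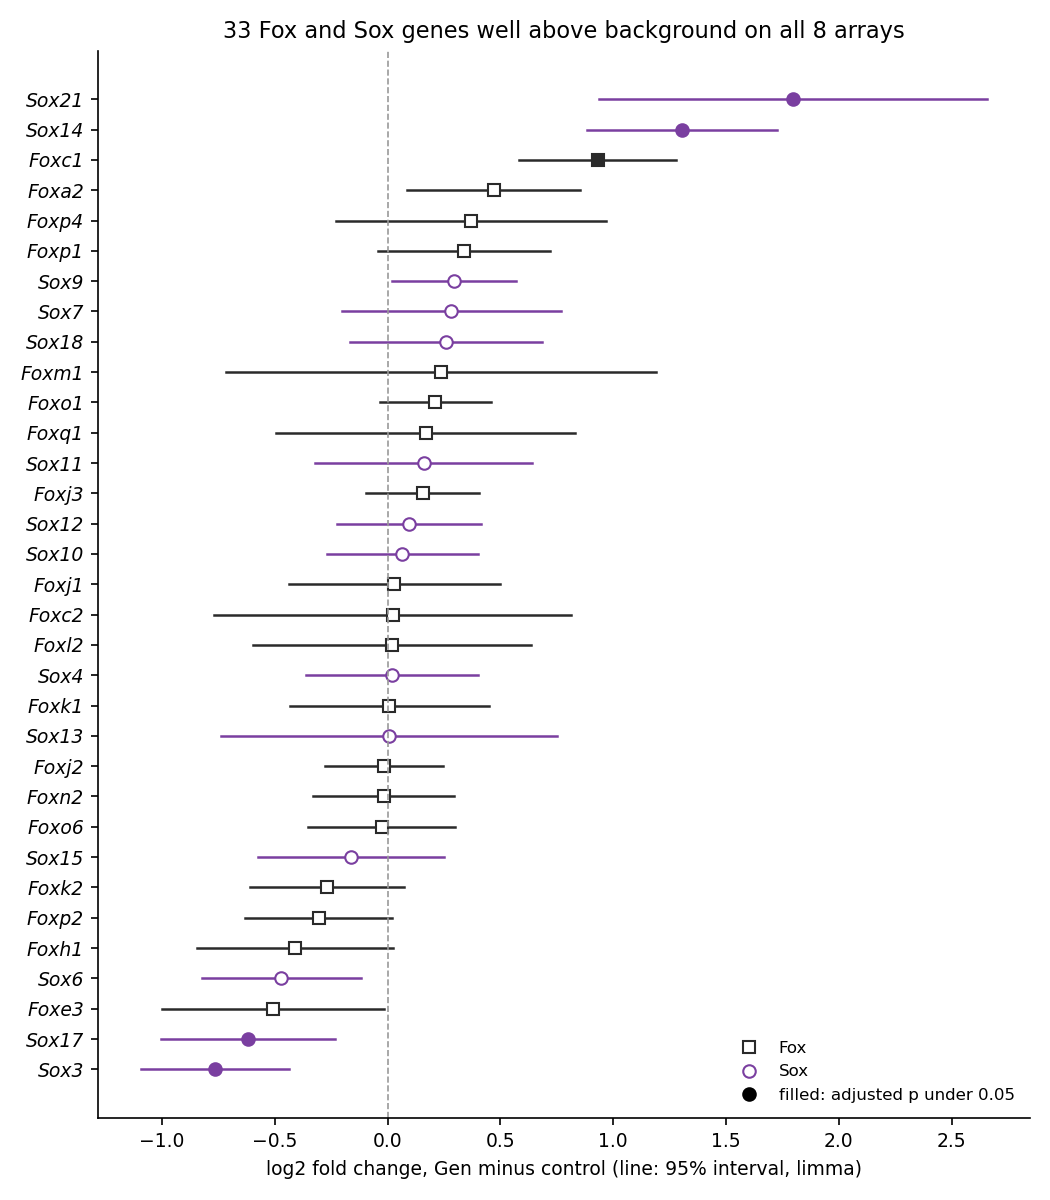
The log2 fold change, Gen minus control, of the 33 Fox and Sox genes whose brightest probe was well above background on all 8 arrays, with the 95% interval of the limma fit (4 arrays per group). Squares are Fox and circles Sox genes, and the filled points are Foxc1, Sox14 and Sox21 to the right of 0 and Sox3 and Sox17 to the left.

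Counted by probe, 22 of 96 passed, beside 16.2% of all 41173 probes tested, but these counts depended on how bright the probes were. Of 50 probes on all 8 arrays, 7 passed, beside 4.37% of all such probes, 3 of them higher (1.93% of all) and 4 lower (2.44% of all). Of 28 probes on 1 to 7 arrays, 6 passed, all higher, beside 4.94% of all such probes called higher and 6.84% in either direction. Of these 6, 5 were Sox11 probes and the other Sox2, so that by gene, with the brightest probe of each, 1 of 15 passed. Of 18 probes on no array, 9 passed, all lower, beside 63.4% of all such probes, and nothing is read from them. With probes that are dim in both groups left out before adjustment, 5 Fox or Sox probes passed, beside 1.11% of the 28955 probes tested. They were Foxc1 (adjusted p = 0.0338), Sox14 (0.0276), Sox3 (0.0435) and Sox11 probes 4 and 5 (0.0281 and 0.0338) by limma. Sox21 (0.0606), Sox2 (0.0673) and Sox17 (0.0993) did not pass in that fit. The split of 9 higher and 13 lower also depended on the scaling, with 8 higher and 0 lower without scaling and 2 higher and 0 lower after quantile normalization.

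Foxc1, a forkhead factor of mesenchyme, eye and vessel development, rose. Its signal was 476, 474, 597 and 562 in controls and 796, 1059, 1050 and 1130 in Gen-treated mice. Every Gen array lay above every control array. The difference on the log2 scale was 0.93 (SE 0.15, n = 4 and 4, 1.91-fold, adjusted p = 0.0236 by limma). Foxc2, its close relative in the family, read 203, 306, 323 and 285 in controls and 171, 531, 218 and 307 in Gen-treated mice, so the groups overlapped widely. Its log2 fold change was 0.02 (SE 0.34), with a 95% interval from −0.77 to 0.81. The log2 ratio of Foxc1 to Foxc2 within an array was 0.93 ± 0.25 (SD) in controls and 1.84 ± 0.59 in Gen-treated mice (n = 4 each). By a two-sided exact permutation test, p was 0.0571, and 0.0686 after adjustment over 6 such ratios chosen after the values were seen, 1 of them with a Sox11 probe that no control array measured and so not given.

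Sox14 and Sox21, the SoxB2 factors, known as repressors in the developing nervous system, both had a probe that rose. Sox14 read 170, 301, 257 and 250 in controls and 655, 588, 594 and 535 in Gen-treated mice by the probe printed above. The groups did not overlap, and the Gen arrays were tightly grouped. It rose by 1.31 on the log2 scale (SE 0.18, 2.47-fold, adjusted p = 0.0236 by limma). The other Sox14 probe, 488 bases downstream, was well above background on no array, so the rise rests on 1 probe. With the mean of both probes in place of the brighter one, the log2 fold change was 0.47 and the adjusted p 0.111 by limma.

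Sox21 had 3 probes on all 8 arrays, and 1 of them passed. The most downstream, probe 3, read 338, 211, 193 and 111 in controls and 403, 877, 752 and 839 in Gen-treated mice, with no overlap. Its log2 fold change was 1.80 (SE 0.37, 3.48-fold, adjusted p = 0.0236 by limma). The middle probe, 652 bases from the most upstream one, gave 0.83 (SE 0.27, adjusted p = 0.0779 by limma), and the upstream coding probe printed above gave 0.23 (SE 0.17, adjusted p = 0.443 by limma). The log2 ratio of the most downstream to the most upstream probe was −0.56 ± 0.68 (SD) in controls and 1.01 ± 0.75 in Gen-treated mice. By a two-sided exact permutation test p was 0.0571, or 0.0686 adjusted over the same 6 ratios, and the difference between the probes did not pass.

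The SoxB1 genes Sox2 and Sox3, known for keeping neural and other progenitors, were read by 1 probe each. Sox3 fell, from 411, 356, 310 and 330 in controls to 248, 190, 205 and 185 in Gen-treated mice. Every Gen array lay below every control array, at a log2 fold change of −0.77 (SE 0.14, 1.70-fold, adjusted p = 0.0236 by limma).

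Sox2 cleared background on all 4 Gen arrays and on none of the control arrays. It read 9.47, 7.87, 15.1 and 6.69 in controls and 80.9, 24.9, 26.4 and 30.1 in Gen-treated mice. The groups did not overlap, with Gen replicate 1 the highest by a wide margin (adjusted p = 0.0236 by limma). The Gen signals lay near the lowest that control arrays could call, so no fold is given. With normexp background correction its log2 fold change was 0.30 (adjusted p = 0.401 by limma), and with a floor on dim signals 0.07 (adjusted p = 0.830 by limma). Sox1, the remaining SoxB1 gene, was detected on 2 control and 4 Gen arrays and did not pass (log2 fold change −0.42, SE 0.26).

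**Figure D2:**
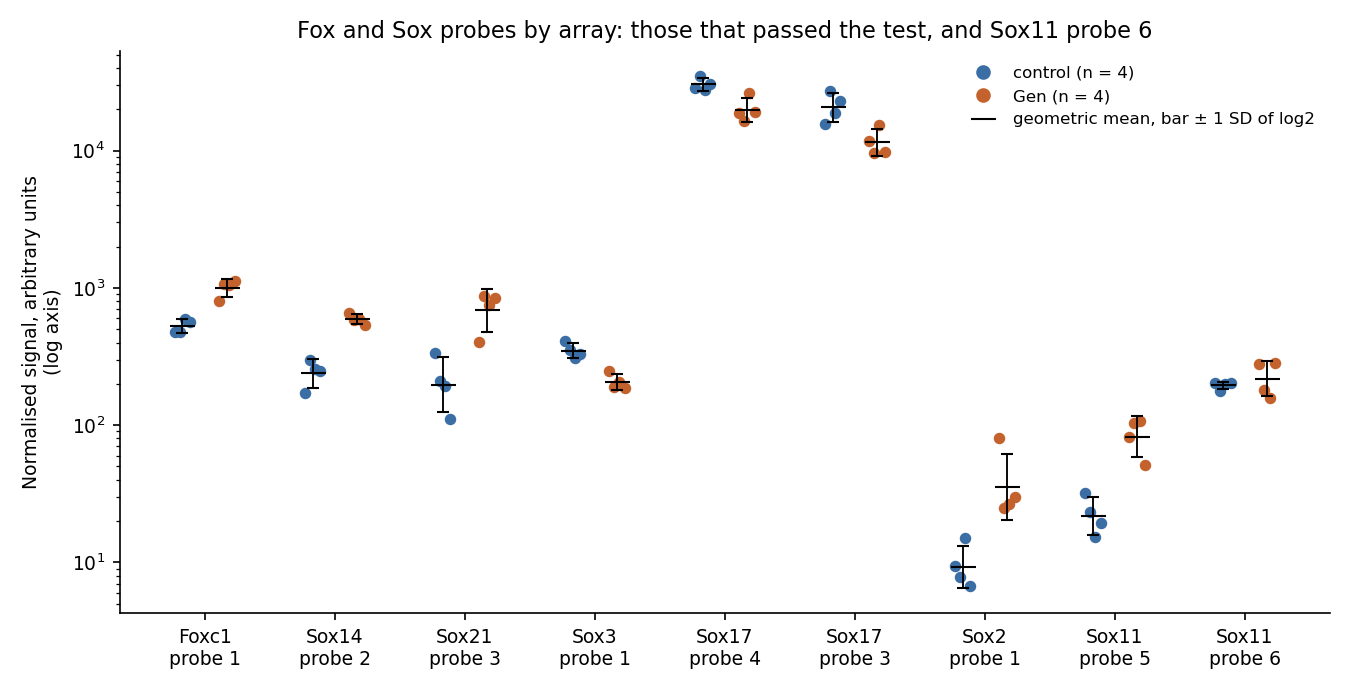
Signal of each array on a log axis, in arbitrary units, for Fox and Sox probes that passed the test, with Sox11 probe 6, which did not. Points are arrays (4 control in blue, 4 Gen in orange), and horizontal marks are geometric means with ± 1 SD of log2 signal. Sox2 and Sox11 probe 5 were not well above background on any control array. The groups do not overlap in any probe shown except Sox11 probe 6. Probes of a gene are numbered from the dimmest to the brightest.

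Sox11, a SoxC factor of neural and mesenchymal progenitors, was read by 6 probes. Probe 6, the HMG box probe printed above, read 204, 177, 198 and 202 in controls and 279, 180, 159 and 282 in Gen-treated mice. The groups overlapped, and the log2 fold change was 0.16 (SE 0.21, adjusted p = 0.668 by limma). The other 5 probes lie 1364 to 7409 bases further downstream, and each passed by limma. Each of these was well above background on at most 1 control array and on 3 or 4 Gen arrays, so the size of their change is not given. With normexp background correction their log2 fold changes were 0.10 to 0.47 and none passed (adjusted p from 0.129 to 0.704 by limma).

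Sox11 probe 5, the farthest downstream, read 32.1, 23.4, 15.2 and 19.3 in controls and 81.7, 103, 107 and 51.0 in Gen-treated mice. The groups did not overlap. As no control array was well above background, only a lower bound on its rise is given, 2.07-fold in the main processing. For probe 4, for which the same holds, the bound was 1.51-fold. Both bounds depended on the processing, at 1.23-fold and 1.13-fold with normexp background correction. Without control replicate 4 they were 1.85-fold and 1.35-fold. Such a bound sets the Gen mean against, on each control array, the higher of the probe's own signal and the lowest signal called well above background there.

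**Figure D3:**
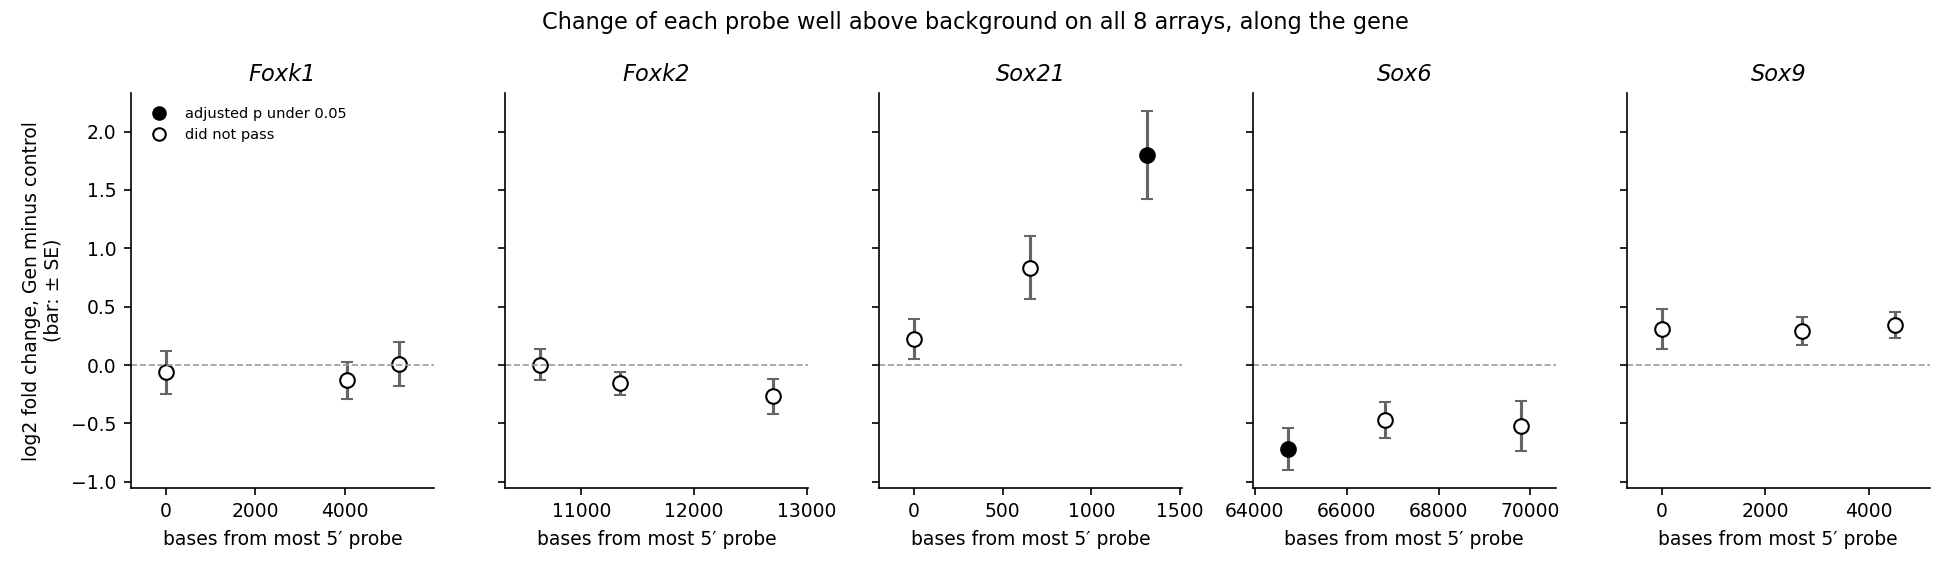
The log2 fold change of each probe, Gen minus control (bars ± SE), against its distance in genomic bases from the gene's most 5′ probe. The 5 genes drawn have 3 probes well above background on all 8 arrays and placed on the same strand. Sox17 is not drawn, as 1 of its 3 probes on all 8 arrays is placed on the opposite strand. Filled points passed by limma and open points did not, and 1 probe of Sox21 (1.80) and 1 of Sox6 (−0.72) are filled.

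Sox4 and Sox12, the other SoxC genes, were measured on all 8 arrays and did not pass. Sox4 had a log2 fold change of 0.02 (SE 0.17), and Sox12 one of 0.09 (SE 0.14). Sox19 read between 40.6 and 72.1 in controls and between 44.4 and 63.5 in Gen-treated mice, and the groups overlapped.

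Among the SoxF factors, all known for vascular roles, Sox17 was the one gene that fell. Its brightest probe, probe 4, read 28373, 34798, 27870 and 30817 in controls and 18684, 16311, 26281 and 18968 in Gen-treated mice. The groups did not overlap, with Gen replicate 3 close to the lowest control. The log2 fold change was −0.62 (SE 0.17, 1.54-fold, adjusted p = 0.0394 by limma). Probe 3, the coding probe printed above, read 15551, 27379, 18665 and 23116 in controls and 11769, 9667, 15499 and 9819 in Gen-treated mice. It fell by 0.85 on the log2 scale (SE 0.22, adjusted p = 0.0359 by limma), and here too Gen replicate 3 came next to the lowest control. The 2 dimmer Sox17 probes gave −0.16 and −0.12 and did not pass, and the last of them is placed on the strand opposite to the other Sox17 probes. Averaging all 4 probes gave −0.44 with an adjusted p of 0.146 by limma.

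Sox7 and Sox18 did not pass. Sox7 probe 2 read 3190, 3363, 2346 and 2708 in controls and 2927, 3048, 3253 and 5135 in Gen-treated mice (log2 fold change 0.28, SE 0.21). Its dimmer probe 1 read 362, 348, 311 and 446 in controls and 527, 430, 487 and 625 in Gen-treated mice. That gave 0.50 (SE 0.16, adjusted p = 0.0806 by limma). Sox18 read 4271, 3600, 3744 and 3480 in controls and 3695, 5213, 3629 and 5870 in Gen-treated mice (log2 fold change 0.26, SE 0.18). Each of these probes overlapped between the groups. The log2 ratio of Sox17 to Sox7 was 3.40 ± 0.18 (SD) in controls and 2.50 ± 0.48 in Gen-treated mice, with exact permutation p = 0.0286, and that of Sox17 to Sox18 was 3.01 ± 0.24 and 2.13 ± 0.58, with exact permutation p = 0.0571. Both came to 0.0686 after adjustment over the 6 ratios.

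Of 11 further endothelial genes measured on all 8 arrays, including Pecam1, Cdh5 and Kdr, 0 passed by limma at an adjusted p under 0.05, 1 had an unadjusted p under 0.05, and 10 lay above 0. Their median log2 fold change was 0.21, beside −0.01 over all probes on all 8 arrays. Their summed signal was 62256–74936 in controls and 69569–89871 in Gen-treated mice. Their part in the Sox17 values was not tested.

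In the SoxD group, known for cartilage and other lineages, Sox6 had 5 probes, and the 3 on all 8 arrays had log2 fold changes below 0. The brightest, probe 5, read 1094, 742, 913 and 1002 in controls and 596, 718, 750 and 625 in Gen-treated mice. Its groups overlapped by 1 pair of arrays, since the highest Gen value passed the lowest control, and −0.47 (SE 0.15) did not pass (adjusted p = 0.0779 by limma). Probe 3 passed at −0.72 (SE 0.18, adjusted p = 0.0303 by limma) with no overlap, and probe 4 gave −0.52 (SE 0.21) and did not pass. Averaged over its 5 probes, Sox6 gave −0.75 with an adjusted p of 0.0212 by limma. That average takes in probe 1, on no array (−1.25), and probe 2, on 2 control and 3 Gen arrays (−0.80). Both lie below the 3 probes on all 8 arrays. Of all 7908 probes on no array, 7622 lay below 0, with a median of −1.16, so nothing is read from probe 1. The log2 ratio of Sox6 to Sox13 gave exact permutation p = 0.257. Sox5 was well above background on 2 arrays at most by any of its 3 probes.

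Sox13, also SoxD, did not differ in mean between the groups beyond its spread (log2 fold change 0.01, SE 0.32) but varied within both. It read 9736, 4690, 5013 and 5036 in controls and 4936, 5147, 4587 and 10034 in Gen-treated mice. One array in each group stood far above the others, which lay close together.

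The SoxE genes Sox8, Sox9 and Sox10, known for cartilage, gonad and glial lineages, did not pass. The 3 Sox9 probes gave log2 fold changes of 0.31, 0.34 and 0.29. Sox9 probe 2 read 2830, 2335, 2726 and 2945 in controls and 3407, 3353, 3295 and 3636 in Gen-treated mice, without overlap (SE 0.11, adjusted p = 0.0836 by limma). Sox10 gave 0.07 (SE 0.15). The brighter Sox8 probe was called on 1 control and 4 Gen arrays and gave 0.50 (SE 0.21, adjusted p = 0.163 by limma), and the other gave 0.61 (SE 0.34). Of 5 further cartilage and Sox9-related genes measured on all 8 arrays, Col9a2, a minor cartilage collagen, fell (log2 fold change −1.51, SE 0.29, adjusted p = 0.0236 by limma) and the others did not pass. Of 6 further Schwann and glial genes on all 8 arrays, 4 lay above 0 and 2 below, with a median of 0.18. By limma 2 of them passed, both higher, and 1 was the myelin gene Mbp (log2 fold change 0.55, SE 0.13, adjusted p = 0.0252). With dim probes left out, 0 of these cartilage and glial genes passed by limma, Col9a2 at an adjusted p of 0.0509 and Mbp at 0.0714.

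The 3 Fox marker genes of oviduct and ovary cell types did not pass. Foxj1 read 67762, 48191, 48688 and 52216 in controls and 65558, 39018, 53426 and 65937 in Gen-treated mice. The groups overlapped throughout, and the log2 fold change was 0.03 (SE 0.20), with a 95% interval from −0.44 to 0.50. Of 22 further genes of ciliated epithelium measured on all 8 arrays, 0 passed by limma (1 at an unadjusted p under 0.05), 4 lay above 0 and 18 below, with a median of −0.17 beside −0.01 over all such probes. Their summed signal ran from 451617 to 611629 in controls and from 356212 to 632193 in Gen-treated mice, and Gen replicate 2 was lowest both for Foxj1 and for this sum.

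Foxa2 read 29863, 21077, 20441 and 19083 in controls and 35215, 30760, 27226 and 30579 in Gen-treated mice. The groups overlapped only through control replicate 1, which lay above Gen replicate 3. The log2 fold change was 0.47 (SE 0.17, 95% interval 0.08 to 0.85), with an adjusted p of 0.104 by limma and an exact permutation p of 0.0571. Without control replicate 1 it was 0.61 with an adjusted p of 0.0591. Foxa1 was well above background on no array, and Foxa3 on 2 Gen arrays. Of 8 further gland and secretory epithelial genes measured on all 8 arrays, 0 passed by limma (3 at an unadjusted p under 0.05), and their median was 0.03.

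Foxl2 read 101, 140, 146 and 152 in controls and 142, 213, 122 and 89.3 in Gen-treated mice. Its log2 fold change was 0.02 (SE 0.27, 95% interval −0.60 to 0.64), and the Gen values lay on both sides of the controls. Of 10 further granulosa, theca and luteal genes measured on all 8 arrays, 9 lay above 0, with a median of 1.50, and 4 rose by limma. They were the steroidogenic enzymes Cyp11a1 (log2 fold change 4.43, SE 0.96, adjusted p = 0.0236) and Hsd3b1 (4.18, SE 0.96, adjusted p = 0.0246), the inhibin subunit Inha (2.54, SE 0.65, adjusted p = 0.0319) and the nuclear receptor Nr5a2 (2.51, SE 0.61, adjusted p = 0.0268). All 16 genes of the list that had a probe were well above background on at least 1 array. The number that rose was 0 with dim probes left out, the adjusted p values then lying between 0.0682 and 0.0946. The summed signal of the 10 genes was 13374–40143 in controls and 47503–169312 in Gen-treated mice. This list moved with the groups as Foxc1, Sox14 and Sox21 did. Within the Gen group its sum was highest on Gen replicate 1, where Sox14 was also highest but Foxc1 and Sox21 were lowest. Its part in their values was not tested.

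Foxm1, a factor of dividing cells, read 641, 260, 214 and 184 in controls and 338, 352, 218 and 489 in Gen-treated mice, and the groups overlapped (log2 fold change 0.24, SE 0.41). Control replicate 1 and Gen replicate 4 were the highest of their groups, as they were for Sox13. The summed signal of 15 further genes of proliferating cells was 53418 on control replicate 1, 18161–20966 on the other controls, and 34489, 30590, 19588 and 46290 on the Gen arrays. Of these 15 genes 13 lay above 0 (median 0.48), and by limma 0 passed and 0 had an unadjusted p under 0.05.

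**Figure D4:**
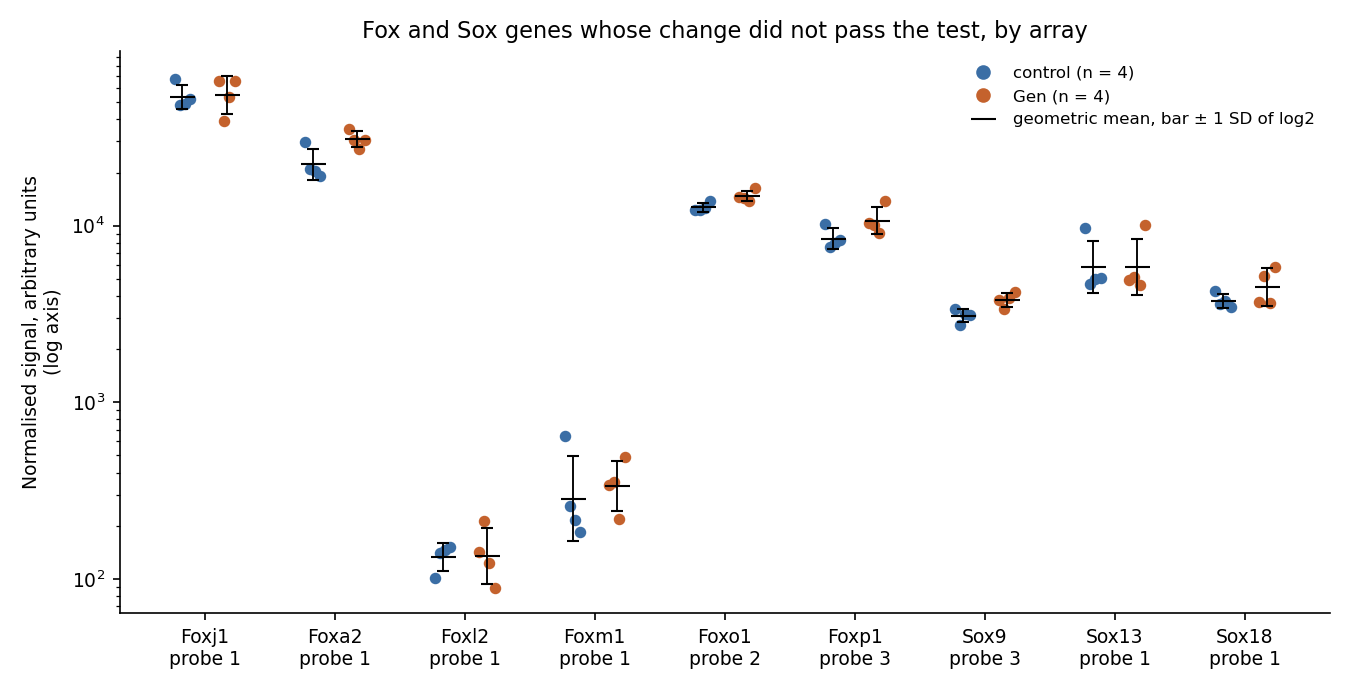
Signal of each array on a log axis, in arbitrary units, for 9 Fox and Sox genes whose change did not pass. Points are arrays (4 control in blue, 4 Gen in orange), and horizontal marks are geometric means with ± 1 SD of log2 signal. Sox13 shows 1 high array per group, 9736 and 10034, and Foxm1 is also highest on those arrays.

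Foxo1, an effector of insulin and growth factor signaling, was slightly higher by both of its probes. Probe 2 read 12224, 12292, 12605 and 13830 in controls and 14541, 14265, 13884 and 16318 in Gen-treated mice, and the groups just failed to touch. Probe 1 read 8232, 9706, 10660 and 10669 in controls and 10731, 13263, 10987 and 11651 in Gen-treated mice, also without overlap. Their log2 fold changes of 0.21 (SE 0.11) and 0.25 (SE 0.13) did not pass (adjusted p = 0.244 and 0.263 by limma). Foxo6 gave −0.03 (SE 0.14), and Foxo3a was on 3 control and 4 Gen arrays, with −0.21 (SE 0.35). Of 18 further Foxo-related genes on all 8 arrays, among them Akt1, 0 passed by limma (1 at an unadjusted p under 0.05) and the median was 0.05.

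Among the broadly acting Foxk and Foxp repressors, none of the probes passed and probes of 1 gene could point both ways. The 3 Foxk1 probes gave −0.06, −0.13 and 0.01. The 4 Foxk2 probes gave 0.15, 0.00, −0.16 and −0.27 in order along the transcript, and the first was dim. Foxk2 probe 3 read 1688, 1663, 1636 and 1521 in controls and 1416, 1438, 1483 and 1496 in Gen-treated mice, without overlap (adjusted p = 0.336 by limma). Foxp2 probe 1, the upstream one, gave 0.29 (SE 0.12), while probe 2, 25406 bases downstream, gave −0.31 (SE 0.14). Foxp1 gave 0.34 (SE 0.17) by its brightest probe and −0.07 (SE 0.11) by the next, while the third, on 3 control and 4 Gen arrays, gave 0.74 (SE 0.26, adjusted p = 0.0961 by limma), and Foxp4 0.37 (SE 0.26) and 0.39 (SE 0.18).

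Of the remaining forkhead genes on all 8 arrays, Foxe3 gave −0.51 (SE 0.21), Foxh1 −0.41 (SE 0.19), Foxj2 −0.02 (SE 0.11), Foxj3 0.15 (SE 0.11), Foxn2 −0.02 (SE 0.14) and Foxq1 0.17 (SE 0.29), and Sox15 gave −0.16 (SE 0.18). None of them passed.

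Foxd3, a neural crest factor, and Foxi2 were called on all 4 Gen arrays and on none of the controls, yet their signals overlapped. Foxd3 read 26.0, 35.3, 28.6 and 23.4 in controls and 39.8, 33.2, 27.2 and 34.3 in Gen-treated mice (log2 fold change 0.25, SE 0.17). Foxi2 read 12.6, 29.7, 41.8 and 23.3 in controls and 38.1, 57.3, 23.4 and 31.8 in Gen-treated mice (log2 fold change 0.54, SE 0.40). The split in detection did not come with a split in signal.

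Foxb2, Foxd2, Foxf1a, Foxf2 and Foxn1 were called on some arrays and did not pass, as was Foxp3, the factor of regulatory T cells, called on 1 Gen array. The genes well above background on no array by any probe included Foxa1, Foxb1, Foxd1, Foxl1 and Sox30. For comparison, 0 of 5 further T cell genes, 0 of 7 stratified squamous genes and 0 of 10 smooth muscle genes measured on all 8 arrays passed by limma, with 0, 0 and 1 at an unadjusted p under 0.05. All 10 smooth muscle genes lay below 0 (median −0.26), and their part in the Fox and Sox values was not tested. Of 10 further hedgehog pathway genes, Hhip, a hedgehog antagonist, fell by 0.75 on the log2 scale (SE 0.18, adjusted p = 0.0251, or 0.0748 with dim probes left out, by limma). It was the one of the 10 that passed, with 5 above 0 and 5 below, and limma gave 4 an unadjusted p under 0.05. The ligands Dhh (0.80, SE 0.26) and Ihh (−1.27, SE 0.43), named after their values were seen, did not pass (adjusted p = 0.0797 and 0.0901 by limma). Of 13 genes of oocyte and preimplantation embryo looked for, 2 that are no Fox or Sox gene were on all 8 arrays, at a median log2 fold change of 2.53, and neither passed, both having an unadjusted p under 0.05 by limma. The summed signal of those 2 genes was 351–3850 in controls and 3987–23887 in Gen-treated mice.

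RefSeq promoters (GRCm38.p6) were at hand for 37 of the 58 genes, and 47 windows of 250 bases before the start were searched on both strands. A Sox motif (ACAAAG or ACAATG) was in 16 of them (34.0%), beside 25.2% of all 32851 promoters, and a forkhead motif (TGTTTAC or TATTTAC) in 2 (4.26%), beside 5.76% of all. Some genes have several windows. Counted by gene, 10 of the 37 held a Sox motif (27.0%), beside 28.2% of all 27025 genes, and 2 a forkhead motif (5.41%), beside 6.51%. The window of Sox2 held a Sox motif, in capitals, 206 bases before the start, and those of Foxc1, Sox11, Sox14 and Sox21 held no match to these letters. The windows of Sox2 and Foxc1 are printed as examples with and without a match.
Sox2, chr3:34649745-34649994, plus strand: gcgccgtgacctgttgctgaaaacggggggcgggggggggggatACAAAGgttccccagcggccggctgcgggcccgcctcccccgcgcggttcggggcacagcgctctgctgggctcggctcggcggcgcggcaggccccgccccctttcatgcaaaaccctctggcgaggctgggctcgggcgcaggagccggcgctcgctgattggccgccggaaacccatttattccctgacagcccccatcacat
Foxc1, chr13:31806396-31806645, plus strand: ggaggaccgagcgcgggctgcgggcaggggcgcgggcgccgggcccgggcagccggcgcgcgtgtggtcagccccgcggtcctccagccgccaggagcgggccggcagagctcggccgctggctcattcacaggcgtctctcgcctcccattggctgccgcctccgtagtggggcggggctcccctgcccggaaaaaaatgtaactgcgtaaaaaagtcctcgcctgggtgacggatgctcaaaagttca

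Base composition of the probes themselves ranged from 23.3% to 76.7% GC, with a median of 41.7%. Of the 13 Fox and Sox probes with at least 60% GC, 9 were well above background on all 8 arrays and 1, that of Sox3, passed. Of the 83 under 60% GC, 41 were on all 8 arrays, 17 on no array, and 21 passed. No share over all probes of the array was taken, and nothing is read from these counts.

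Leaving out any of 4 of the 8 arrays lost most of these calls, and leaving out any of the other 4 did not. Without control replicate 2, 3 or 4 or Gen replicate 4, 17, 18, 19 and 17 Fox and Sox probes passed by limma. Of all 41173 probes, 5703, 5812, 7130 and 6042 passed in the same fits. Among the Fox and Sox genes on all 8 arrays, 5, 4, 4 and 4 passed. Without Gen replicate 1, 2 or 3, the adjusted p of Foxc1, Sox14, Sox21, Sox3 and Sox2 by limma was 0.0633, 0.0675 and 0.0603, and 3, 2 and 1 of all 41173 probes passed. Without control replicate 1 it was 0.0591 for Foxc1, Sox21, Sox3 and Sox2 and 0.0373 for Sox14, and 97 of all probes passed. Sox17 probe 4 did not pass without any 1 array, its adjusted p then lying between 0.0603 and 0.107. The log2 fold changes in these fits stayed between 0.87 and 1.04 for Foxc1, 1.14 and 1.41 for Sox14, 1.52 and 2.06 for Sox21, −0.85 and −0.69 for Sox3, and −0.76 and −0.53 for Sox17.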

How the data were processed

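Per the labels, each array held Cy3-labelled RNA of 1 sample, and the methods gave the treatment, age and time. The authors deposited Feature Extraction 9.5 files, whose processed intensity (linear scale) was made by background adjustment within each array. A surrogate stands for small signals, and arrays were not scaled to each other. The later Resolver steps were not applied. Positions are those of the array design (mm7).

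Control and outlier spots were left out, log2 intensities of a probe were averaged, and arrays were scaled to a common 75th percentile. Groups were compared with lmFit and eBayes (limma 3.58.1, R 4.3.3), with Benjamini-Hochberg adjustment over 41173 probes, and single values by exact permutation (smallest p 0.0286). A gene is represented by its brightest probe. On simulated data for Gen against control with 41040 probes, 67% of 2-fold and 89% of 4-fold changes were recovered.

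The genes, lists and tests were chosen with earlier results of these data known. Genes named are the marker genes, those called or without overlap in at least 1 group well above background, the 3 brightest per family, those detected in 1 group alone, those whose probes disagree, and up to 4 called genes per list. Names followed the array, and 57 of 58 matched a RefSeq symbol, with Foxf1a and Foxo3a now Foxf1 and Foxo3. The number of arrays limits precision. A few named genes and 1 probe sequence are not reported here.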

Additional observations from a re-analysis of the deposited data

Results flagged for a closer look

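Sox13 was marked because 1 array stood far from the other 3 in each group. Control replicate 1 read 9736, with the next control at 5036, and Gen replicate 4 read 10034, with the next Gen array at 5147. These were 2 of 66 groups of 4 arrays examined, of which chance marks about 1 in 20. Foxm1 was also highest in its group on these arrays, at 641 and 489. Over 24920 probes, the deviations of these 2 arrays from their group means had a correlation of 0.38, the highest of any control and Gen pair. Whether a shared feature of these mice or arrays lies behind both was not tested.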

How the results depend on the processing

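The 22 Fox and Sox probes called, and the 5 genes called among those measured on all 8 arrays, became 2 and 1 with quantile normalization, 8 and 2 without scaling, 5 and 3 with dim probes left out, 0 and 0 with a floor on dim signals, and 0 and 0 with the methods' t-test. Over all probes, 6674 were called in the main fit and 178, 640, 320, 20 and 0 in these, in the same order. That t-test called 0 of all 41173 probes after adjustment. At an unadjusted p under 0.05 it gave 33 Fox and Sox probes and 11364 of all probes. At the methods' threshold of 0.01 it gave 19 Fox and Sox probes, beside 22 by limma, and no count over all probes was taken there. Normexp background correction gave 4 probes, beside 251 of all probes. Leaving out 1 array gave 0 to 19 probes and 0 to 5 genes, beside 1 to 7130 of all probes. The median log2 fold change of the genes moved from 0.03 to 0.27 without scaling, where that of all probes on all 8 arrays was 0.24. Replicate numbers were not shown to pair the mice, as same-numbered control and Gen arrays had correlations of −0.08, 0.11, −0.02 and −0.18 in their deviations. With the replicate number as a block, 0 Fox and Sox probes, 0 genes and 1 of all probes passed.

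The 5 genes called kept their direction under every alternative run, Sox17 at −0.38 (adjusted p = 0.537 by limma) and Sox3 at −0.52 (0.317) without scaling. Signs turned only for genes that were not called. With normexp correction Foxd3 gave −0.032, Foxi2 −0.16, Foxj1 −0.037, Foxk1 −0.095, Foxl2 −0.0014 and Sox13 −0.13. With quantile normalization Foxk1 gave −0.067, Foxl2 −0.046 and Foxo6 0.018. Without scaling Foxo6 gave 0.21, and with the mean of its probes Foxk1 gave −0.063. Leaving out 1 array, Foxj1 ranged from −0.060 to 0.19, Foxk1 from −0.12 to 0.12, Foxl2 from −0.20 to 0.22, Foxo6 from −0.12 to 0.037 and Sox13 from −0.25 to 0.25. The cause of these shifts was not tested. Sox2 gave 0.30 with normexp correction and 0.07 with the floor. That floor, 65.9, lay above all of its signals but that of Gen replicate 1 (80.9).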
